A study of Mus musculus with 6 samples.

Results

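A set of 40 genes of glucose uptake, glycolysis, lactate handling and the response to low oxygen were followed in mouse ear skin with contact dermatitis. They were taken by gene symbol from the deposited expression table of 19309 genes, and all 40 were found there and had enough counts to be tested, as did 15317 genes in all. The list comprised 4 glucose transporters, 10 genes from the hexokinases to triosephosphate isomerase, 4 enzymes of fructose 2,6-bisphosphate, 7 genes of lower glycolysis, 4 of lactate, 4 pyruvate dehydrogenase kinases and 7 hypoxia genes. The animals were C57BL/6 mice 6 to 8 weeks old, and every one of them was sensitised on day 1 with 0.5% DNFB in a volume of 25 µL. DNFB, 2,4-dinitrofluorobenzene, is a small reactive chemical that couples to skin proteins and sets off a T cell reaction. From day 6 the left ear was painted with 10 µL of 0.25% DNFB and the right ear with 10 µL of the solvent, 80% acetone with 20% olive oil, and the ears were taken after 6 days of treatment. The 3 mice gave 3 DNFB ears and 3 vehicle ears, so the vehicle ears are skin of sensitised animals that carry a treated ear on the other side, and no ear of an unsensitised mouse enters the comparison. The comparison asks which transcripts of these pathways differ between the 2 ears of an animal under challenge.

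Glycolysis splits glucose into pyruvate in the cytosol, and its enzymes come as isoforms that differ between tissues. Muscle has its own phosphofructokinase, phosphoglycerate mutase and enolase, while proliferating keratinocytes, neutrophils and activated macrophages depend strongly on the general isoforms and send pyruvate on to lactate. When oxygen is scarce, or when inflammatory signals raise its level, the transcription factor HIF-1 binds short sites in promoters of glucose transporters, glycolytic enzymes and pyruvate dehydrogenase kinases, and the prolyl hydroxylases that mark its alpha subunit for destruction are among its own targets.

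DNFB ears held more transcript of most steps from glucose entry to lactate export, and less of several muscle and oxidative isoforms. By edgeR's quasi-likelihood test with Benjamini-Hochberg adjustment over all genes, at a threshold of 0.05, 19 of the 40 genes rose, 11 fell and 10 did not pass. Over all 15317 genes tested, 51.1% passed in either direction, 25.8% higher and 25.2% lower, against 75% of the 40 genes, 47.5% higher and 27.5% lower. The share that fell was therefore near that of all genes, and it dropped to 7 genes without vehicle ear 1, vehicle ear 2 or DNFB ear 2. Without the same ears the genes that fell over the whole table also dropped, from 3867 to 2751, 2789 and 2605. Without both ears of mouse 2, 12 of the 40 passed, against 2422 of all 15378 genes tested in that fit. In 37 of the 40 the DNFB ear differed from the vehicle ear in 1 direction in all 3 mice, as in 69.8% of all genes, and in 33 the TPM of the groups did not overlap, as in 61.1%. The median log2 fold change of the 40 was 0.34, against -0.02 for all genes, and the range was from -1.39 for Ldhb to 4.70 for Hk3. The 40 genes together made up 0.824%, 0.73% and 0.681% of all TPM (a unit that gives a gene's share of the library corrected for transcript length) in the vehicle ears of mice 1, 2 and 3 and 1.23%, 1.2% and 0.933% in the DNFB ears. Vehicle and DNFB ears did not overlap in this total. Levels of single ears are given below in TPM and in the order of mice 1, 2 and 3, while fold changes come from the fit to the counts.

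**Figure D1:**
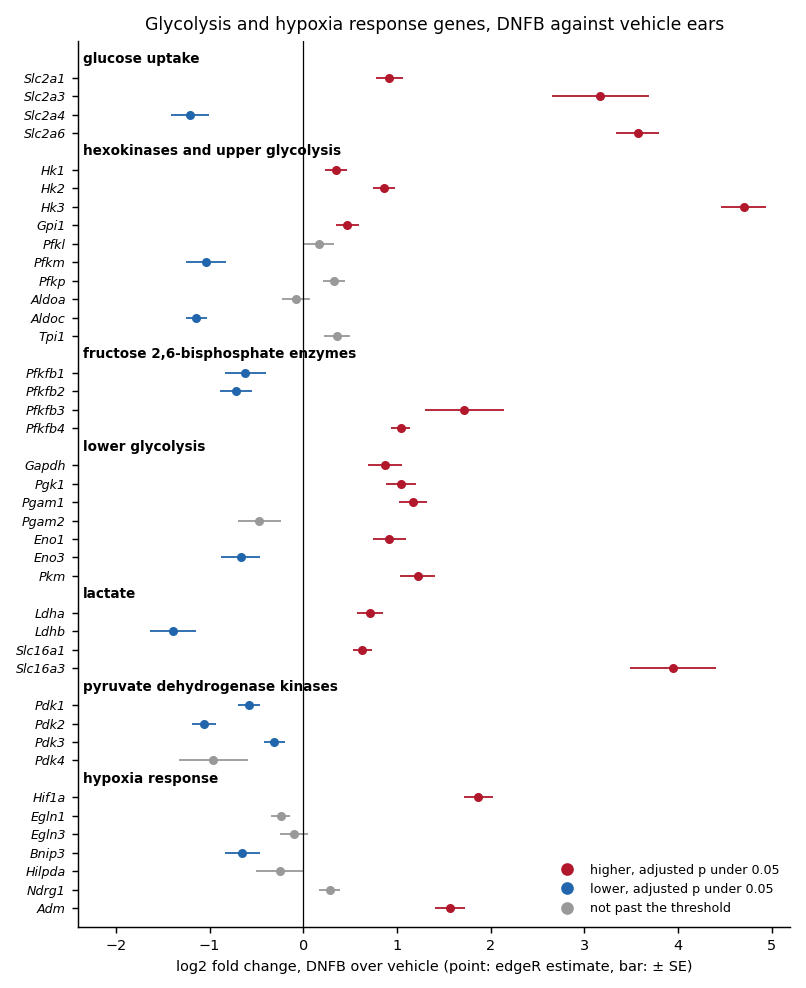
The plot gives the log2 fold change of each of the 40 genes, DNFB over vehicle ears, with its standard error as a bar, grouped by role. Red genes rose, blue genes fell and grey genes did not pass. Hk3, Slc16a3, Slc2a6 and Slc2a3 lie farthest to the right, and no pyruvate dehydrogenase kinase lies above 0.

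Library depth was even, at 19556754 to 20336945 estimated counts in all 6 libraries. The tissue label was checked against 12 keratinocyte genes, whose summed level was 16119.8 to 20358.1 TPM in vehicle ears and 10448 to 17342.3 TPM in DNFB ears. Of these 12 genes 3 rose, 5 fell and 4 did not pass, from 8.66-fold lower for Flg2 to 21.4-fold higher for Krt16. Their sum does not show these opposite changes. Markers of several other cell types also moved with the treatment. All 10 neutrophil markers rose, from a sum of 299.3 to 470.8 TPM to one of 3452.5 to 7404.3 TPM, as did all 10 monocyte and macrophage markers, from 1312.4 to 1563.6 TPM to 4071.6 to 6649.4 TPM, and all 8 cell cycle genes, from 80.0 to 88.0 TPM to 166.4 to 225.2 TPM. Of 18 skeletal muscle markers 17 fell, and of 10 adipocyte markers all fell, and none of these markers was at 0 in all libraries. Of 8 T cell markers 7 rose, from a sum of 44.2 to 59.4 TPM to one of 94.5 to 209.0 TPM. Other lists were mixed or did not pass. Of 9 fibroblast markers 4 rose and 2 fell, of 8 endothelial markers 4 rose and 1 fell, and of 5 red cell markers tested none passed. In bulk tissue, fewer cells of a type and less RNA per cell cannot be told apart. The DNFB ear of mouse 3 was the lowest of the 3 DNFB ears for 16 of the 19 genes that rose. Over all genes that rose, the same ear was lowest for 70.5%.

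The promoters of the 40 genes were searched for the core of the HIF site, whose letters are ACGTG, on both strands. Windows from 250 bases before to 50 bases after the RefSeq transcript start were available for 37 of them, on build GRCm38.p6, which is not the build of the deposited table. The core was present in 23 of the 37 (62.2%) and in 21.8% of the 27025 mouse genes with such windows. Some genes have several windows, and these 37 have more of them per gene, so the share was also taken per window, where it was 27 of 57 (47.4%) for the 37 and 6447 of 32851 for all genes. By gene, the core was found in 13 of the 18 genes that rose, 6 of the 10 that fell and 4 of the 9 that did not pass. The variant GCGTG was present in 25 of the 37 (67.6%) against 35.2% of all genes, and CACGTG, which reads as an E-box and contains the core on both strands, in 8 (21.6%) against 8.09%. These are matches of letters and not measured binding. The background was every mouse gene with a window, not matched for base composition or expression, and the 40 were picked as glycolysis and hypoxia genes. Whether the higher shares reflect HIF sites was not tested. Printed here, 5′ to 3′ on the strand of the gene with the core in capitals, are upstream stretches of 5 genes that rose and hold more than 1 separate core, since they span the pathway from hexokinase to lactate export and the factor itself.
Hk2, chr6:82774487-82774695, minus strand: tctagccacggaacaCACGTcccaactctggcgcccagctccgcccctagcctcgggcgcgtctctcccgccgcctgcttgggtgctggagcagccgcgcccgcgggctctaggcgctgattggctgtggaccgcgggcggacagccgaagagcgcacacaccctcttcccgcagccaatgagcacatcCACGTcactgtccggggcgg
Pgk1, chrX:106186935-106186988, plus strand: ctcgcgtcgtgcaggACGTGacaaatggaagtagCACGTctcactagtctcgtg
Ldha, chr7:46845644-46845789, plus strand: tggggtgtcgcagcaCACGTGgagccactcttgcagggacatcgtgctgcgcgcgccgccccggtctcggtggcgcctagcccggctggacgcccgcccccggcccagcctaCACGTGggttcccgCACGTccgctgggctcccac
Slc16a3, chr11:120949025-120949066, plus strand: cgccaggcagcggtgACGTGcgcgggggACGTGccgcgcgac
Hif1a, chr12:73907717-73907816, plus strand: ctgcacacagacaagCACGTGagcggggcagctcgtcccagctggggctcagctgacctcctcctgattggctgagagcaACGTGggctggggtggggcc

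The same core also stood in promoters of genes that fell. The 4 genes that fell and hold CACGTG, capitalised below, are shown beside them as the counterpart. They are a muscle phosphofructokinase, a regulator of that step, a pyruvate dehydrogenase kinase and a mitophagy receptor.
Pfkm, chr15:98092438-98092473, plus strand: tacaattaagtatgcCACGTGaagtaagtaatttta
Pfkfb2, chr1:130715823-130715858, minus strand: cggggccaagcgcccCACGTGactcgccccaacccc
Pdk2, chr11:95041477-95041512, minus strand: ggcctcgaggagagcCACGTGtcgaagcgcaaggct
Bnip3, chr7:138909594-138909629, minus strand: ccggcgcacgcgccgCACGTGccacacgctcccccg

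Among the glucose transporters, 3 rose and 1 fell, where 25.8% of all genes tested rose and 25.2% fell. Slc2a1 (GLUT1, the basal transporter of most cells, Entrez 20525) stood at 59.9, 43.6 and 60.7 TPM in vehicle ears and at 101, 115 and 91.4 TPM in DNFB ears. Every DNFB ear was above every vehicle ear, and the gene rose 1.89-fold (log2 fold change 0.92 ± 0.14 SE, edgeR adjusted p = 0.00169). Slc2a3 (GLUT3, a high-affinity transporter of neurons and leukocytes, Entrez 20527) had 1.55, 1.69 and 2.44 TPM in vehicle ears and 24.3, 20.8 and 5.87 TPM in DNFB ears. The groups did not overlap, but the DNFB ear of mouse 3 stood well under the other two. The fitted increase was 9.02-fold (3.17 ± 0.52, adjusted p = 0.0029). Slc2a6 (GLUT6, a transporter found in myeloid cells, Entrez 227659) gave 1.25, 1.31 and 1.88 TPM in vehicle ears against 21.7, 18.4 and 13.0 TPM in DNFB ears, an increase of 11.8-fold (3.57 ± 0.23, adjusted p = 0.000101). Its groups lay far apart. Slc2a4 (GLUT4, the insulin-responsive transporter of muscle and fat) was at 26.5, 23 and 25 TPM in vehicle ears and at 12.7, 7.38 and 11.6 TPM in DNFB ears, with no overlap, and fell 2.31-fold (-1.21 ± 0.20, adjusted p = 0.00291). The part of the muscle and adipocyte markers, which were lower in the same ears, in the fall of Slc2a4 was not tested.

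As a share of these 4 transporters' TPM, Slc2a4 made up 29.7%, 33.1% and 27.8% in vehicle ears and 7.92%, 4.57% and 9.48% in DNFB ears. The shares did not overlap, and the exact permutation test gave p = 0.1, two-sided, which is the smallest that 3 against 3 ears allow. The share of Slc2a4 was 1 of 9 isoform shares tested in this way, and 7 of the 9 reached this smallest p (0.129 after Benjamini-Hochberg adjustment).

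All 3 hexokinases, which trap glucose as its phosphate, rose, and by very unequal amounts. Hk3, the myeloid hexokinase, had the largest increase of the 40 genes. Its level was 1.65, 1.75 and 2.13 TPM in vehicle ears and 53.0, 54.8 and 33.4 TPM in DNFB ears, 25.9-fold higher by the fit (4.70 ± 0.24, edgeR adjusted p = 4.75e-05). Hk2, the inducible hexokinase, was at 13.1, 10.2 and 11.5 TPM in vehicle ears and 19.2, 20.4 and 23.1 TPM in DNFB ears and rose 1.81-fold (0.86 ± 0.12, adjusted p = 0.00157). In neither gene did the groups overlap, and for Hk2 the DNFB ear of mouse 3 was the highest. Hk1, the isoform of most tissues, was the most abundant of the 3 in vehicle ears, at 39.2, 31.1 and 40.4 TPM against 41.0, 51.4 and 47.3 TPM in DNFB ears. The nearest ears of the groups almost met, and the increase of 1.28-fold (0.35 ± 0.12) was just past the threshold (adjusted p = 0.0433). The call for Hk1 was lost in the fit with a mouse block (adjusted p = 0.115), without vehicle ear 1, 2 or 3 (0.0736, 0.133 and 0.0743) and without DNFB ear 2 (0.143). It was also lost with upper-quartile factors, when genes of low count were kept in and by limma on log2 TPM (0.0509 to 0.0806).

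Hk3 made up 3.06%, 4.06% and 3.94% of hexokinase TPM in vehicle ears and 46.8%, 43.3% and 32.2% in DNFB ears, a share that was computed after the values had been seen. The share of Hk2 was 24.2%, 23.8% and 21.3% against 17.0%, 16.1% and 22.3%. The Hk2 shares overlapped between the groups (exact permutation p = 0.2, 0.225 after adjustment). Neutrophil, macrophage and T cell markers were highest in the DNFB ears of mice 1 and 2 and lower in that of mouse 3. Slc2a3, Slc2a6 and Hk3 were likewise lowest in that ear. The same ear was the lowest for 70.5% of all genes that rose. The part of neutrophils, macrophages and T cells in the result for Hk3, Slc2a3 and Slc2a6 was not tested.

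Further along upper glycolysis, from glucose phosphate to the triose phosphates, changes were small or downward. Gpi1, glucose phosphate isomerase, rose 1.38-fold (0.47 ± 0.12, edgeR adjusted p = 0.0174), from 205, 188 and 204 TPM to 288, 295 and 232 TPM. Its groups did not overlap, but the call was lost with the mouse block (adjusted p = 0.0507) and without vehicle ear 1, 2 or 3 (0.0522, 0.0585 and 0.0544) or DNFB ear 1 or 2 (0.0528 and 0.0701). Phosphofructokinase, the committed step of glycolysis, is a tetramer of products of 3 genes. Pfkm, the muscle subunit, was at 97.4, 73.2 and 70.2 TPM in vehicle ears and 47.5, 29.9 and 38.5 TPM in DNFB ears and fell 2.06-fold (-1.04 ± 0.21, adjusted p = 0.00623), with no overlap. Pfkl, the liver subunit, and Pfkp, the platelet subunit, were at 0.17 ± 0.16 (adjusted p = 0.397) and 0.33 ± 0.12 (adjusted p = 0.0581) and missed the threshold. Pfkl had 32.9, 30.4 and 33.7 TPM in vehicle ears and 39.1, 41.5 and 27.0 TPM in DNFB ears, so that mouse 3 alone went down. Without that DNFB ear Pfkl passed (0.34, adjusted p = 0.0106), and Pfkp passed without DNFB ear 1 (0.40, adjusted p = 0.0465) and by DESeq2 (adjusted p = 0.0406).

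Aldoa, the aldolase of muscle and most other cells, was the most abundant gene of the upper part, at 1600.1, 1275 and 1248 TPM in vehicle ears and 1379, 1275 and 1162 TPM in DNFB ears. The groups overlapped, and the difference did not pass (-0.08 ± 0.15, adjusted p = 0.673). Aldoc, the aldolase best known from brain, fell 2.20-fold (-1.14 ± 0.11, adjusted p = 0.000339), from 12.8, 12.2 and 12.8 TPM to 5.60, 6.01 and 5.39 TPM. Its groups were tight and far apart, yet Aldoc was 1.02% or less of the aldolase TPM in every ear. Tpi1, triosephosphate isomerase, had 292, 300 and 274 TPM in vehicle ears and 401, 398 and 303 TPM in DNFB ears. The DNFB ear of mouse 3 was close to the vehicle ears, and Tpi1 did not pass (0.36 ± 0.14, adjusted p = 0.0741). It passed when that ear was left out (0.48, adjusted p = 0.00752) and by DESeq2 (0.37, adjusted p = 0.046).

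The 4 bifunctional PFKFB enzymes make and break fructose 2,6-bisphosphate, the main activator of phosphofructokinase, and they moved in opposite directions. Pfkfb3, the inducible isoform with high kinase activity, was at 11.6, 9.21 and 8.62 TPM in vehicle ears and at 42.9, 40.5 and 13.5 TPM in DNFB ears. The DNFB ears of mice 1 and 2 were alike and that of mouse 3 was little above the vehicle ears. Pfkfb3 rose 3.30-fold (1.72 ± 0.42, edgeR adjusted p = 0.0128), a call that was lost without vehicle ear 2 or 3 (adjusted p = 0.053 and 0.0531). Pfkfb4, a hypoxia-inducible isoform, had an even response of 11.7, 12.5 and 13.4 TPM against 25.6, 24.3 and 28.0 TPM and rose 2.06-fold (1.04 ± 0.10, adjusted p = 0.00036), with the DNFB ear of mouse 3 the highest. Pfkfb2, the heart isoform, fell 1.65-fold (-0.72 ± 0.17, adjusted p = 0.0104), from 10.2, 9.41 and 9.78 TPM to 4.72, 5.61 and 7.24 TPM. Pfkfb1, the isoform of liver and muscle, fell 1.53-fold (-0.62 ± 0.22, adjusted p = 0.0472) from 3.63, 3.65 and 3.47 TPM to 2.39, 1.74 and 2.55 TPM. In both, the groups did not overlap. The Pfkfb1 call was lost with the mouse block (adjusted p = 0.0904), without vehicle ear 1, 2 or 3 (0.132, 0.129 and 0.0729) and without DNFB ear 1 or 2 (0.0667 and 0.147). It was also lost with no filter on low counts (0.0569) and by DESeq2 (0.0537).

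**Figure D2:**
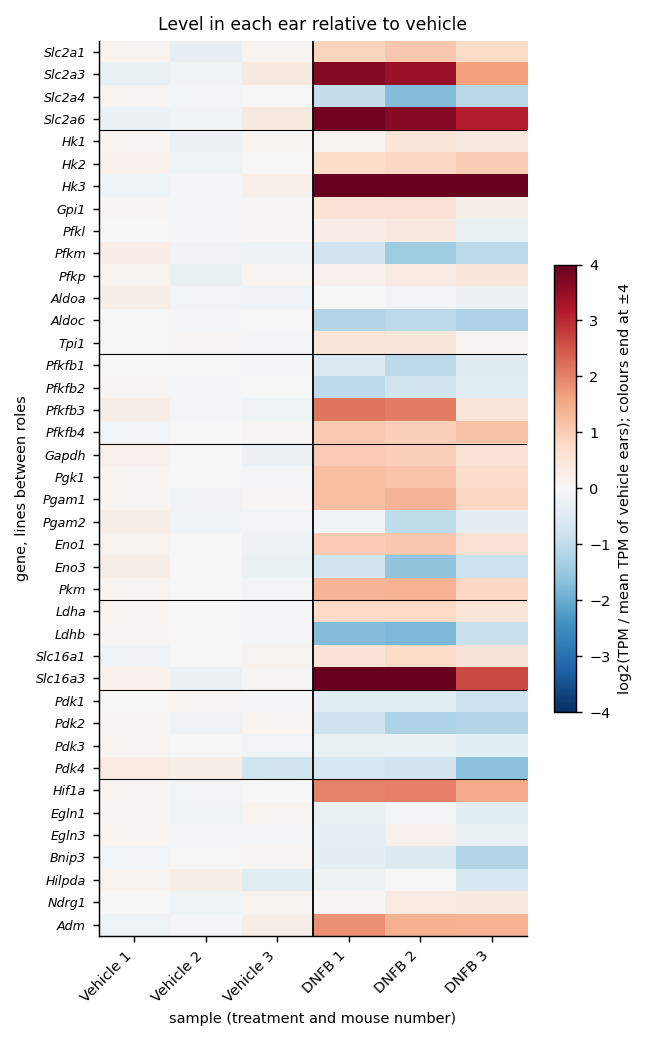
Each row is 1 of the 40 genes and each column 1 ear, and the colour gives log2 of TPM over the mean TPM of the vehicle ears, red for higher and blue for lower, with the scale ending at 4 and -4. In the DNFB ear of mouse 3, Slc2a3, Pfkfb3 and Slc16a3 (5.87, 13.5 and 56.4 TPM) are paler than in the other DNFB ears, while Pfkfb4 is even over all 3, at 24.3 to 28.0 TPM.

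Lower glycolysis, which yields ATP and pyruvate, rose at every general isoform. Gapdh, the dehydrogenase often used as a reference transcript, was at 2615, 2315 and 1978 TPM in vehicle ears and at 4665, 4419 and 3399 TPM in DNFB ears, and rose 1.82-fold (0.87 ± 0.18, edgeR adjusted p = 0.00724). All 3 DNFB ears were above all 3 vehicle ears. Pgk1, the first ATP-forming step, went from 171, 161 and 152 TPM to 371, 352 and 263 TPM, 2.05-fold higher (1.04 ± 0.16, adjusted p = 0.00182). Pgam1, the general phosphoglycerate mutase, went from 133, 114 and 132 TPM to 292, 325 and 227 TPM, 2.25-fold higher (1.17 ± 0.15, adjusted p = 0.00089). Both sets of ears were apart, with mouse 3 the lowest of the DNFB ears in each. Eno1, the general enolase, had 450, 416 and 357 TPM against 822, 868 and 609 TPM and rose 1.89-fold (0.92 ± 0.18, adjusted p = 0.00515). Pkm, the pyruvate kinase of muscle and of activated cells, had 623, 573 and 528 TPM against 1479.9, 1514 and 1011 TPM and rose 2.33-fold (1.22 ± 0.19, adjusted p = 0.00195). Splice forms of Pkm are not separated in a gene table.

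The muscle isoforms of the same steps went the other way or did not pass. Eno3, the muscle enolase, was at 202, 170 and 142 TPM in vehicle ears and 102, 57.0 and 94.2 TPM in DNFB ears, without overlap. It fell 1.59-fold by its counts (-0.67 ± 0.21, adjusted p = 0.0322). On log2(TPM + 1) the limma difference for Eno3 was -1.04 (adjusted p = 0.00954), a larger difference than in the counts. The count-based call for Eno3 was lost without vehicle ear 1 or 2 (adjusted p = 0.11 and 0.0936) and without DNFB ear 2 (0.0813). Pgam2, the muscle mutase, was at 133, 99.8 and 103 TPM in vehicle ears and 99.1, 55.9 and 85.2 TPM in DNFB ears, and the groups came close but did not overlap (-0.47 ± 0.23, adjusted p = 0.126). Aldoa, Gapdh, Pgk1, Pgam1, Eno1, Tpi1, Pkm and Ldha belong to families with many processed copies in the mouse genome, with which reads of 50 bases can be shared, so their levels are uncertain to that extent.

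Set against the sum of the skeletal muscle markers, these isoforms looked different. The 18 muscle markers summed to 8143.9, 7060.5 and 5759.4 TPM in vehicle ears and 3868.1, 2413.3 and 3390.2 TPM in DNFB ears. The markers fell unequally, from 8.64-fold for Pvalb to 1.65-fold for Ryr1, and Des did not pass (log2 fold change 0.15). Values on this scale therefore depend on the markers summed, and the part of muscle in the isoform results was not tested. Per 100 TPM of these markers, Pfkm was at 1.15 ± 0.0988 in vehicle ears and 1.20 ± 0.0566 in DNFB ears (mean ± SD, n = 3). Eno3 was at 2.45 ± 0.0428 and 2.59 ± 0.209, and Slc2a4 at 0.362 ± 0.0625 and 0.325 ± 0.0176. For these 3 genes the groups overlapped on this TPM scale. Eno3 fell less in estimated counts, from a mean of 3137.6 in vehicle ears to 1991.4 in DNFB ears, than in TPM, from 171 to 84.2. The ratio was not taken in counts, so the overlap of Eno3 holds for TPM only. Pgam2 was at 1.63, 1.41 and 1.79 per 100 in vehicle ears and at 2.56, 2.31 and 2.51 in DNFB ears, higher in every DNFB ear. As shares of their families, Pfkm was 51.0% ± 4.17 of phosphofructokinase TPM in vehicle ears and 29.7% ± 5.67 in DNFB ears, Pgam2 46.8% ± 3.04 and 22.4% ± 6.82 of the mutases, and Eno3 29.5% ± 1.33 and 10.2% ± 3.68 of the enolases (SD, n = 3, exact permutation p = 0.1 each).

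**Figure D3:**
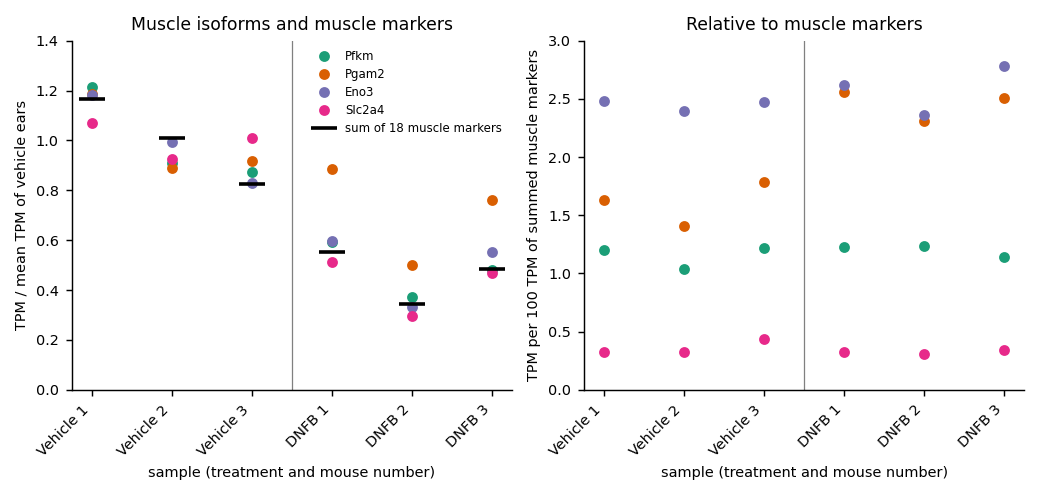
Points are Pfkm, Pgam2, Eno3 and Slc2a4 in each ear, on the left as TPM over the mean TPM of the vehicle ears, with the sum of the 18 muscle markers on the same scale as a bar, and on the right as TPM per 100 TPM of those markers. On the left DNFB ears lie lower, and on the right the ears of Pfkm, Eno3 and Slc2a4 overlap while Pgam2 is higher in DNFB ears, at 2.31 to 2.56 against 1.41 to 1.79.

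The lactate genes gave one of the sharpest contrasts of the set. Slc16a3 (MCT4, the low-affinity lactate exporter of strongly glycolytic cells, Entrez 80879) was at 10.3, 7.76 and 9.33 TPM in vehicle ears and at 188, 174 and 56.4 TPM in DNFB ears. The groups were far apart, with mouse 3 well under the other DNFB ears, and the gene rose 15.5-fold (3.95 ± 0.46, edgeR adjusted p = 0.000775). Slc16a1 (MCT1, which carries lactate both ways) rose 1.55-fold (0.63 ± 0.10, adjusted p = 0.00254), from 21.5, 23.0 and 25.8 TPM to 34.1, 39.8 and 33.7 TPM. Slc16a3 thus went from 32.3%, 25.2% and 26.5% to 84.7%, 81.4% and 62.6% of the TPM of this pair. Its order over the DNFB ears was that of the neutrophil, macrophage and T cell markers, whose part in the result for Slc16a3 was not tested. The DNFB ear of mouse 3 was also the lowest for 70.5% of all genes that rose.

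Ldha, the lactate dehydrogenase subunit that favours lactate formation, had 602, 564 and 540 TPM in vehicle ears and 991, 979 and 793 TPM in DNFB ears and rose 1.63-fold (0.71 ± 0.14, adjusted p = 0.00479). Ldhb, the subunit of oxidative tissues such as heart, had the largest fall of the 40 genes. Its vehicle ears were close together at 215, 211 and 204 TPM, and its DNFB ears were at 62.7, 61.0 and 114 TPM, a fall of 2.63-fold (-1.39 ± 0.25, adjusted p = 0.00416). Neither gene's groups overlapped, and mouse 3 showed the smaller difference in both. Ldhb made up 26.4%, 27.3% and 27.5% of lactate dehydrogenase TPM in vehicle ears and 5.95%, 5.87% and 12.5% in DNFB ears.

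**Figure D4:**
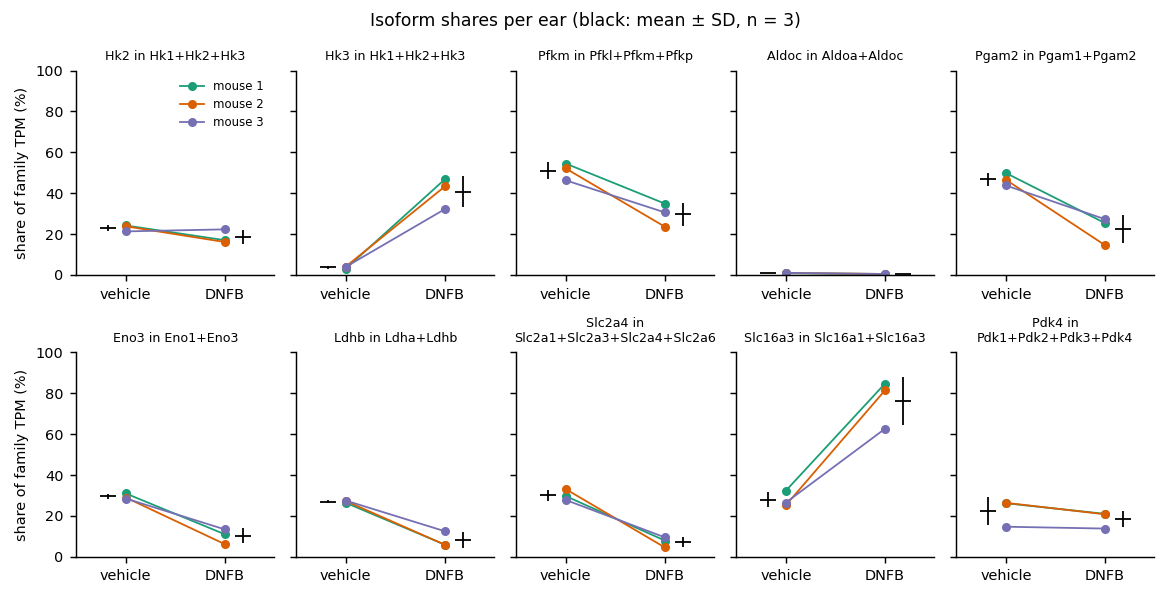
Each panel gives 1 isoform as a percentage of the TPM of its family, with a line joining the vehicle and DNFB ear of each mouse and black marks for the mean and SD of 3 ears. Slc16a3 moves up, from 25.2% to 32.3% in vehicle ears to 62.6% to 84.7% in DNFB ears, while Slc2a4, Pfkm, Pgam2, Eno3 and Ldhb move down and Hk2 and Pdk4 overlap.

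Pyruvate dehydrogenase kinases inactivate the mitochondrial enzyme that turns pyruvate into acetyl-CoA, and none of the 4 rose. Pdk2, a widely expressed isoform, was at 38.1, 33.3 and 38.4 TPM in vehicle ears and at 20.5, 15.4 and 16.1 TPM in DNFB ears, with no overlap, and fell 2.08-fold (-1.06 ± 0.13, edgeR adjusted p = 0.000809). Pdk1, the isoform best known as a HIF-1 target, went from 23.8, 25.6 and 23.7 TPM to 17.6, 18 and 13.5 TPM and fell 1.49-fold (-0.58 ± 0.12, adjusted p = 0.00621). Pdk3 went from 46.1, 42.5 and 39.6 TPM to 35.1, 35.3 and 32.1 TPM. Its groups did not overlap, and its fall of 1.24-fold (-0.31 ± 0.11) passed narrowly (adjusted p = 0.0473). The Pdk3 call was lost with the mouse block (adjusted p = 0.0829), without vehicle ear 1 or 2 (0.165 and 0.131) and without DNFB ear 1, 2 or 3 (0.0858, 0.107 and 0.0703). It was also lost with DESeq2 size factors, without a filter on low counts, with DESeq2 and with limma-voom (0.0508 to 0.0606).

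Pdk4, the isoform induced by fasting in muscle and fat, varied with the mouse. It was at 38.3, 36.3 and 17.5 TPM in vehicle ears and at 19.4, 18 and 9.91 TPM in DNFB ears. The DNFB ear was the lower in every mouse, but the groups overlapped since both ears of mouse 3 were low. Without a block the difference of -0.96 ± 0.37 did not pass (adjusted p = 0.0685). In the fit with a mouse block Pdk4 fell (-0.92, adjusted p = 0.00435), and it also passed by DESeq2 (adjusted p = 0.0226) and without vehicle ear 3 (-1.25, adjusted p = 0.019).

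Of the 7 hypoxia genes, 2 rose, 1 fell and 4 did not pass. The share that passed, 42.9%, was under the 51.1% of all genes tested. By direction 28.6% were higher and 14.3% lower, against 25.8% and 25.2%. Hif1a, the oxygen-regulated subunit of HIF-1 (Entrez 15251), was at 44.0, 38.2 and 42.5 TPM in vehicle ears and at 165, 168 and 120 TPM in DNFB ears. The groups were far apart and the transcript rose 3.65-fold (1.87 ± 0.15, edgeR adjusted p = 0.000185). Adm, the vasodilator peptide adrenomedullin, rose 2.97-fold (1.57 ± 0.16, adjusted p = 0.000456), from 8.36, 9.06 and 11.1 TPM to 33.4, 25.2 and 25.0 TPM. Bnip3, a HIF-inducible receptor for the removal of mitochondria, fell 1.57-fold (-0.65 ± 0.19, adjusted p = 0.0269), from 103, 111 and 116 TPM to 83.5, 75.9 and 49.0 TPM. Groups did not overlap for either gene, and the Bnip3 call was lost without vehicle ear 1, 2 or 3 (0.0644, 0.0904 and 0.0748) and without DNFB ear 2 (0.057).

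The prolyl hydroxylases Egln1 and Egln3 stood at -0.24 ± 0.10 (adjusted p = 0.0945) and -0.10 ± 0.15 (adjusted p = 0.583) on the log2 scale. Egln1 had 43.7, 37.7 and 46.1 TPM in vehicle ears and 35.7, 39.3 and 31.9 TPM in DNFB ears, and Egln3 had 36.5, 33.8 and 33.7 TPM and 27.8, 39.2 and 29.0 TPM. In both, mouse 2 ran against mice 1 and 3. With upper-quartile factors Egln1 passed (-0.31, adjusted p = 0.0374). Hilpda, a lipid droplet protein, was at 94.3, 102 and 62.6 TPM in vehicle ears and 75.7, 86.6 and 55.7 TPM in DNFB ears (-0.25 ± 0.25, adjusted p = 0.431), and Ndrg1, a stress-inducible gene of differentiating epithelium, at 122, 110 and 137 TPM and 130, 154 and 157 TPM (0.28 ± 0.11, adjusted p = 0.0778). Both overlapped between the groups. Ndrg1 passed without DNFB ear 1 (0.36, adjusted p = 0.0454) and by DESeq2 (adjusted p = 0.039).

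Genes next to these pathways were drawn from 8 lists. The background was the share of all tested genes that passed, 51.1%, with 25.8% higher and 25.2% lower. Of 10 genes of the HIF machinery, 1 rose, 4 fell and 5 did not pass, with a median log2 fold change of -0.15. The share that passed was 50%, with 10% higher and 40% lower. Hif3a, a weak or inhibitory alpha subunit, fell from 0.95, 0.91 and 0.68 TPM to 0.29, 0.28 and 0.25 TPM (-1.61 ± 0.25, edgeR adjusted p = 0.00195), and Hif1an, the asparagine hydroxylase that restrains HIF, from 18.7, 18.5 and 18.7 TPM to 11.7, 12.1 and 12.2 TPM (-0.62 ± 0.08, adjusted p = 0.00122). In both the groups lay apart. Arnt, the partner of Hif1a, rose 1.45-fold (0.53 ± 0.12, adjusted p = 0.00996), while Epas1, which encodes the HIF-2 alpha subunit, was at -0.26 ± 0.13 (adjusted p = 0.132). Arnt2, a partner known from neurons, fell 1.45-fold (-0.54 ± 0.16, adjusted p = 0.0303), a call lost with the mouse block (0.0658), without vehicle ear 1 or 3 (0.105 and 0.098) and without DNFB ear 1 or 2 (0.0875 and 0.0828).

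Among 33 further hypoxia targets, 13 rose, 4 fell and 16 did not pass (51.5% passed, median 0.23). The share that passed in either direction was near the background. By direction the list differed from it, with 39.4% higher against 25.8% and 12.1% lower against 25.2%. Hmox1, the haem-degrading enzyme, was at 127, 111 and 145 TPM in vehicle ears and 1010.0, 1082 and 986 TPM in DNFB ears (3.03 ± 0.12, adjusted p = 1.76e-05). Nos2, the inducible nitric oxide synthase, had the largest change, from 0.20, 0.22 and 0.21 TPM to 17.3, 48.6 and 1.65 TPM (6.81 ± 1.34, adjusted p = 0.00562), and its DNFB ears were spread widely while those of Hmox1 were even. Angptl4, an inhibitor of lipoprotein lipase, was at 36.5, 34.6 and 25.9 TPM in vehicle ears and 198, 215 and 109 TPM in DNFB ears and rose by 2.43 ± 0.29 (adjusted p = 0.000843) on the log2 scale. Mif was at 0.23 ± 0.13 (adjusted p = 0.176) and Lox at 0.00 ± 0.19 (adjusted p = 0.996).

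Other isoforms of the glycolytic steps were mostly at small differences. Of 14 tested, 1 rose, 2 fell and 11 did not pass (21.4% passed), but 8 passed without the DNFB ear of mouse 3. In that fit 9093 of all 15581 genes tested passed. Adpgk, an ADP-dependent glucokinase, rose 1.73-fold (0.79 ± 0.09, edgeR adjusted p = 0.0007). Slc16a7 (MCT2) and Slc2a12 fell, 2.33-fold (-1.22 ± 0.19, adjusted p = 0.00235) and 2.32-fold (-1.21 ± 0.26, adjusted p = 0.00756). Bsg, the chaperone of the lactate carriers, was at 512, 488 and 466 TPM against 480, 527 and 474 TPM, with overlap (0.03 ± 0.11, adjusted p = 0.859).

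Of 7 genes of gluconeogenesis 1 rose and 3 fell (57.1% passed). Pck1, the key enzyme of glucose and glycerol synthesis and abundant in fat, went from 44.8, 46.0 and 20.5 TPM to 3.36, 3.26 and 1.90 TPM (-3.71 ± 0.41, adjusted p = 0.000637). Pcx, pyruvate carboxylase, fell 2.18-fold and the muscle enzyme Fbp2 3.32-fold (adjusted p = 0.00304 and 0.00529), and Pck2, the mitochondrial counterpart of Pck1, rose 1.54-fold (adjusted p = 0.00578). Of 16 glycogen genes tested 3 rose and 7 fell (62.5% passed). Ppp1r3b, which targets a phosphatase to glycogen, rose from 1.03, 1.10 and 1.30 TPM to 17.6, 18.4 and 7.03 TPM (3.65 ± 0.39, adjusted p = 0.000575), while the muscle genes Phkg1 and Ppp1r3a fell 3.78-fold and 3.32-fold (adjusted p = 0.00323 and 0.00344). Muscle and adipocyte markers were lower in the same ears, and their part in these falls was not tested.

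Of 10 pentose phosphate genes 3 rose and 2 fell (50% passed), and 2 of the 10 passed with the mouse as a block. The count was also 2 without vehicle ear 2 or DNFB ear 2, and 3 without vehicle ear 1 or 3 or DNFB ear 1. Pgd, which makes NADPH, rose 1.67-fold (0.74 ± 0.09, edgeR adjusted p = 0.00086) with even values of 91.6, 85.1 and 86.4 TPM against 144, 149 and 143 TPM, and H6pd, an NADPH-forming enzyme of the endoplasmic reticulum, rose 2.37-fold (1.24 ± 0.19, adjusted p = 0.00206). Of 27 genes of pyruvate entry and the citric acid cycle, 1 rose, 11 fell and 15 did not pass (44.4% passed, median -0.23). By direction 3.7% were higher and 40.7% lower, against 25.8% and 25.2% of all genes tested. With the block 6 passed. The count was 7 without vehicle ear 1 and 6 without vehicle ear 2 or DNFB ear 2. Pdp1, the phosphatase that reactivates pyruvate dehydrogenase, fell 2.03-fold (-1.02 ± 0.13, adjusted p = 0.0011), and Mpc2, a subunit of the mitochondrial pyruvate carrier, fell 1.64-fold (-0.72 ± 0.11, adjusted p = 0.00238), from 168, 172 and 172 TPM to 93.5, 97.6 and 117 TPM. Its groups lay apart, and mouse 3 was again the nearest to its vehicle ear.

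Of 20 regulators of metabolism 4 rose and 6 fell (50% passed, 20% higher and 30% lower, median 0.07). The share that passed in either direction was near the background of 51.1%. The 4 that rose did so by 1.48-fold to 1.78-fold. The 4 named by size were all among those that fell: Irs1, an insulin receptor substrate (-1.61 ± 0.20, edgeR adjusted p = 0.000954), the fatty acid regulator Ppara (-1.60 ± 0.33, adjusted p = 0.00716), Prkaa2, a catalytic subunit of AMPK (-1.42 ± 0.20, adjusted p = 0.0014), and the adipocyte regulator Pparg (-1.36 ± 0.20, adjusted p = 0.00185). Akt2 and Esrra, the most abundant that did not pass, were at 0.10 ± 0.09 and 0.09 ± 0.09.

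**Figure D5:**
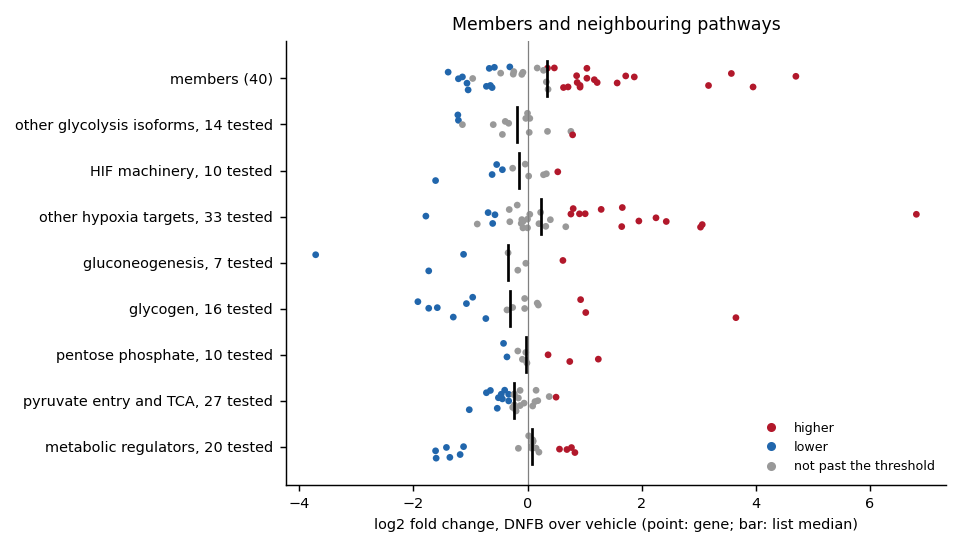
Each point is the log2 fold change of 1 gene, DNFB over vehicle, coloured by whether it rose, fell or did not pass, for the 40 genes and the 8 neighbouring lists, with a bar at the median of each. The median of the 40 genes is at 0.34 and that of pyruvate entry and the citric acid cycle (TCA) at -0.23, where 11 genes fell and 1 rose.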

How the data were processed

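RNA of 6 ears was sequenced after oligo(dT) selection as single-end reads of 50 bases on a DNBSeq instrument, per the labels' protocols, with HISAT and build GRCm39 named in the submitters' processing notes. How reads were assigned to genes, and with which strand setting, was not given in the sources used here. Per the file headers, the authors deposited a read count, FPKM and TPM for each library, the last of these scaled for length and library total. The deposited counts carry decimals and are estimated counts, which were rounded here. Counts were whole numbers for 67.3%, 67.1% and 67.1% of genes in vehicle ears 1, 2 and 3. In DNFB ears 1, 2 and 3 they were so for 65.5%, 43.7% and 41.6%. Thus DNFB ears 2 and 3 differed from the other libraries in this, and the reason was not tested. FPKM entered 1 alternative. Totals were 19556754 to 20336945 per library.

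Groups and mouse numbers came from the sample titles. The groups were compared in R 4.3.3 with edgeR 4.0.16 (TMM factors, filterByExpr with a minimum count of 10, robust quasi-likelihood test, two-sided, no block), with Benjamini-Hochberg adjustment over 15317 genes. The standard error is the absolute log2 fold change over the square root of F. The test was checked on simulated data. Each mouse gave both ears, so numbers pair the libraries. Deviations from group means correlated at -0.027, -0.148 and -0.046 within mice 1, 2 and 3, and the block was an alternative. Isoform shares used an exact permutation test (scipy 1.17.1). Alternatives were the block, DESeq2 1.42.0 size factors and Wald test, upper-quartile factors, other filters, limma 3.58.1 (voom, and log2 of TPM plus 1 or 0.1), shares in estimated counts or FPKM, and leaving out each library or mouse.

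The 40 genes, the lists and the tests were chosen with earlier results of these data known. From each neighbouring list the rule allowed 4 called genes, taken by size of change, and 2 uncalled genes, taken by abundance, and the text names part of these. Gyg1 was matched as Gyg, and Pgk2 was not analysed here. Promoters are from RefSeq, and Slc2a3, Slc2a4 and Ndrg1 had no entry.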

Additional observations from a re-analysis of the deposited data

How the results depend on the processing

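Over 18 alternatives, the 40 genes gave 720 comparisons with the values reported, of which 69 lost a call and 15 gained one. The other 636 kept their side of the threshold. Sign changed in 2 comparisons, both of genes that did not pass: Aldoa was at 0.05 without vehicle ear 1 and Egln3 at 0.03 without mouse 1. Of the called genes 12 kept their call throughout, and 4 uncalled genes stayed uncalled. With the mouse as a replicate block 6572 genes and 27 of the 40 passed (17 higher, 10 lower). That block left 2 pentose phosphate genes and 6 of pyruvate entry and the citric acid cycle. Beside the calls of Hk1, Gpi1, Pfkfb1, Pdk3 and Arnt2, given in the report, it ended those of Prps2 and Taldo1 (adjusted p = 0.0622 and 0.0733). It added that of Pdk4 and changed no other call named in the text. DESeq2 called 5 of the other glycolytic isoforms.

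Leaving out 1 library or mouse gave 2422 to 9106 genes (1570 to 4601 higher, 852 to 4581 lower) and 12 to 32 of the 40 (9 to 21 higher, 3 to 12 lower). Both lowest counts came without mouse 2, which leaves 2 mice, where 64.8% of calls were higher against 50.5%. Without 1 library 5681 to 9093 genes and 23 to 31 of the 40 passed, and 7 of the 40 fell without vehicle ear 1, vehicle ear 2 or DNFB ear 2. List counts ranged over 2 to 8 for other isoforms, 1 to 6 for HIF machinery, 8 to 20 for further hypoxia targets, 1 to 4 for gluconeogenesis, 7 to 11 for glycogen, 1 to 7 for pentose phosphate, 1 to 16 for pyruvate entry and the citric acid cycle and 4 to 10 for regulators. The cause was not tested.

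Isoform shares, DNFB minus vehicle in percentage points, ranged over -6.56 to -3.46 for Hk2, -23.8 to -18.2 for Pfkm, -0.538 to -0.426 for Aldoc, -26.8 to -20.4 for Pgam2, -20.9 to -17.3 for Eno3, -21.1 to -17.8 for Ldhb, -24.0 to -21.4 for Slc2a4, 44.0 to 55.0 for Slc16a3 and -7.73 to -1.51 for Pdk4 when 1 ear was left out. In estimated counts, which are not corrected for length, the shares of Aldoc and Pgam2 differed by -0.889 and -17.4. On the log2(TPM + 1) scale differences of low genes are understated by construction.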
